A study of Drosophila melanogaster with 3 samples.

Results

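The ecdysone cascade regulators are a set of 10 genes (EcR, usp, Eip75B, Eip74EF, br, Eip78C, Hr3, Hr4, Hr39 and ftz-f1) chosen by name from the 13945 protein-coding genes annotated on the 6 main chromosome arms of Drosophila melanogaster. For each of them, the sites occupied by the gap protein Knirps were collected from the gene body with 5 kb on either side, a stretch called the territory below. Knirps-eGFP was mapped by chromatin immunoprecipitation and sequencing (ChIP-seq), in which DNA bound by a tagged protein is pulled down and read. The line stably carries kni with GFP fused to its C-terminus, and the antibody was directed against GFP. Whole embryos of pooled sexes, collected at 0 to 14 h, were used in 3 biological replicates, and their chromatin was sonicated to fragments of 200 to 800 bp. All replicates form 1 group of 1 tagged line, so no second condition, no second genotype and no other age could be compared. Embryos of all stages within the collection, and all their cell types, are mixed in each sample. Untagged embryos and input DNA were not analysed here.

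The steroid hormone ecdysone acts through a dimer of the nuclear receptors EcR and Usp. The hormone-bound dimer switches on a small set of early genes (Eip75B, Eip74EF and br), then a tier of early-late nuclear receptors (Eip78C, Hr3, Hr4 and Hr39), and later ftz-f1, whose products time moulting and metamorphosis. A hormone pulse in the middle of embryogenesis also drives several of these genes. Knirps carries a DNA-binding domain of the nuclear receptor type but no ligand-binding domain of the usual kind, and it acts mainly as a repressor in the segmenting embryo.

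Of the 10 genes, 9 held at least 1 summit of the optimal list, the authors' final set of 7129 peaks, and 9 of 10 also did in each replicate. Over all protein-coding genes the share with a summit was 45.4%, or 6337 of 13945. Together the 10 territories held 110 summits in 106 deposited intervals, which is 1.54% of the optimal peaks on 0.494% of the 6 arms. The density was 1.66 summits per 10 kb in these territories and 0.532 over the arms as a whole. In the strongest 7129 peaks of each replicate the territories held 105, 119 and 108 summits, a mean of 110.7 ± 7.37 (SD, n = 3), so the 3 replicates lay close together. Requiring a summit in both of the other replicates left 78, 68 and 73 of the 110 without replicates 1, 2 and 3. The median over the 10 genes was 10.5 summits and 1.76 per 10 kb, and the median over all genes was 0 for both quantities.

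**Figure D1:**
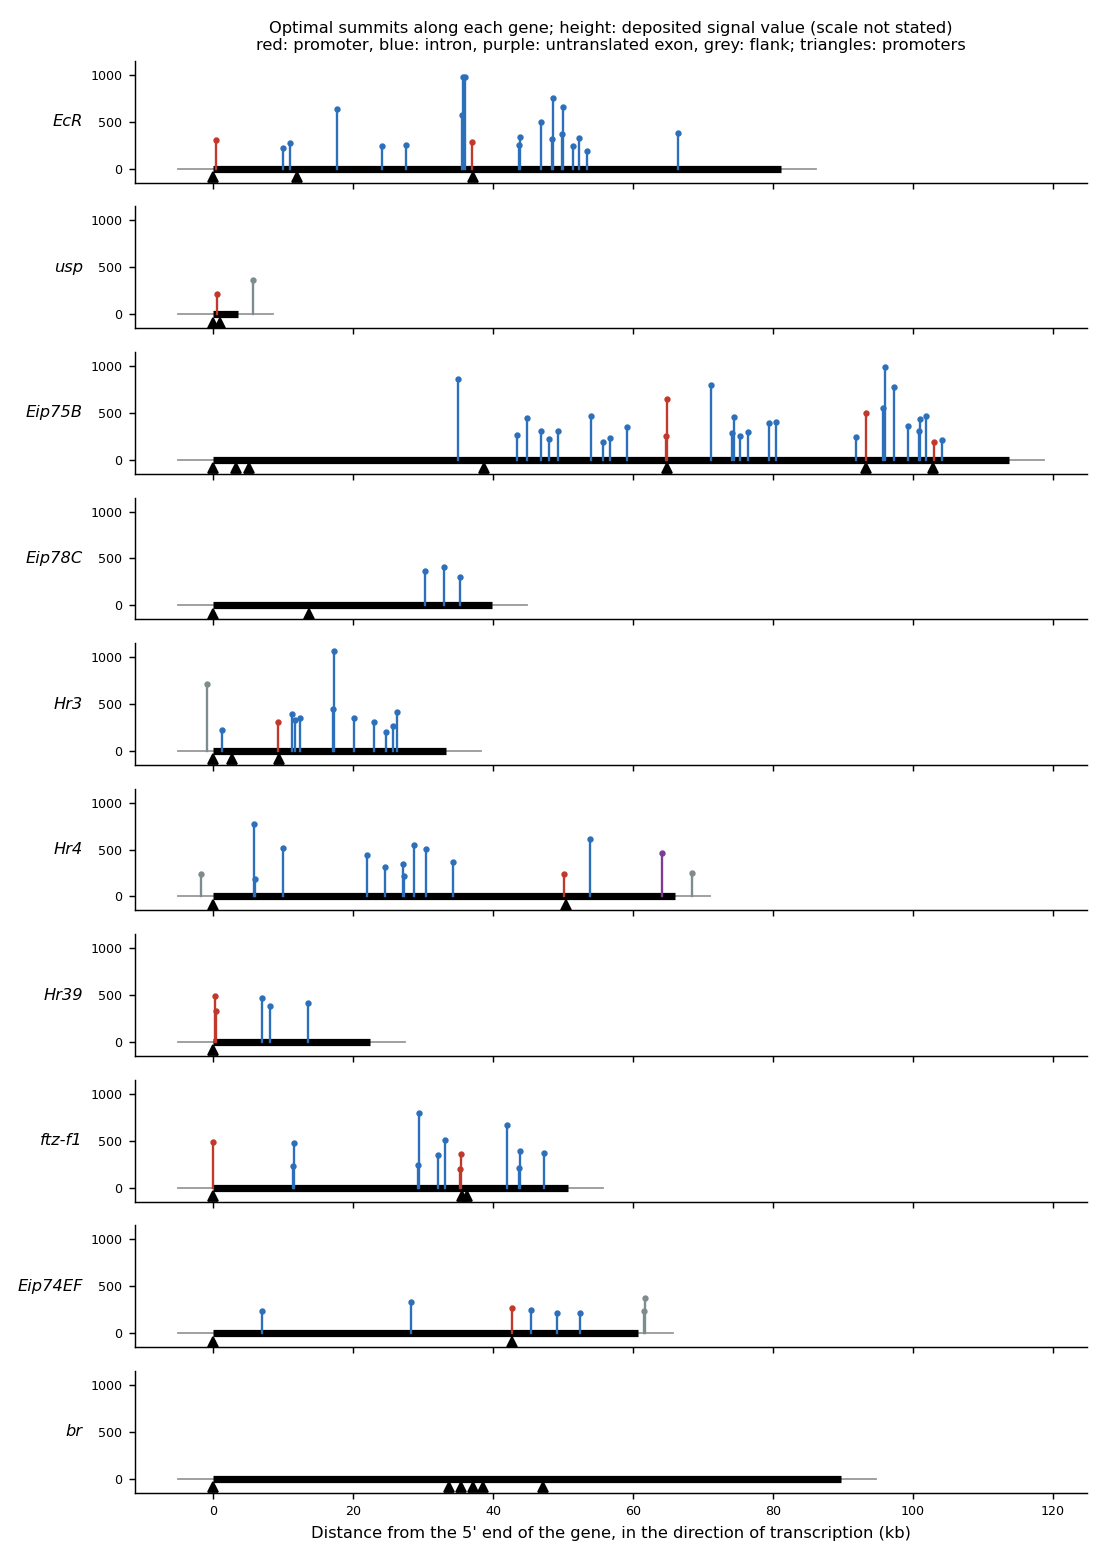
Optimal summits along each gene. The horizontal axis is the distance from the 5′ end of the gene in kb, the height is the deposited signal value on a scale that is not stated, and triangles mark promoters. Eip75B held 30 summits, none of them over its first 34.9 kb, and br held 0.

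Length has to be read beside these counts, because a longer territory can hold more summits. Among genes with a territory of 60 kb or more, 71.0% held a summit, with a median of 3. In this class 5 of 6 ecdysone genes did, namely Eip75B with 30, EcR with 21, Hr4 with 15, ftz-f1 with 13 and Eip74EF with 8, and br was the exception. Eip75B was first of the 307 genes of this class by count and ranked 4 by density. In the class of 30 to 60 kb the share was 68.4% and the median was 2, and all 3 ecdysone genes in it had a summit. Of these, Hr3 held 13, Hr39 held 5 and Eip78C held 3, the last close to the median of its class. Of the genes with a territory of 15 to 30 kb, which include none of the 10, 60.7% held a summit, and of those under 15 kb 39.5% did. In that shortest class lies usp, with 2 summits.

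**Figure D2:**
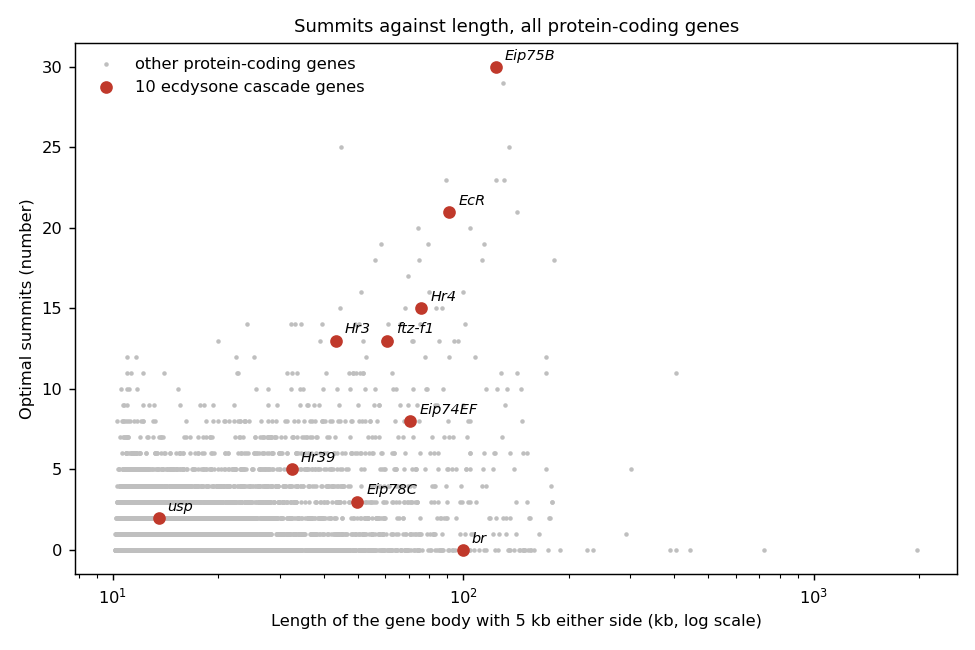
Number of optimal summits against the length of the gene body with 5 kb on either side, in kb on a log scale, for all protein-coding genes (grey) and the 10 ecdysone cascade genes (red). Eip75B has the highest count of all genes, 30, and br lies at 0 with a territory of 99.738 kb.

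By signal value, the peak strength reported by the authors' caller, the summits at these genes were spread through the whole list. Their values ran from 189 to 1065 with a median of 350, whereas the optimal list ran from 188 to 5038 with a median of 292. Of the 110, 73 or 66.4% were in the stronger part of the list that holds the first 3564 peaks. The first 1000 peaks, 14.0% of the list, included 19 of them or 17.3%, and the first 500, 7.01% of the list, included 11 or 10%. Every peak ranked by strength below is ranked within 1 list, since levels in different lists are not on 1 scale.

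The gene for the hormone receptor, EcR (FBgn0000546), lies on the minus strand of 2R:6087873-6169087 and held 21 optimal summits, 2.302 per 10 kb, the eighth-highest count of all genes. Replicates 1, 2 and 3 gave 16, 22 and 20 summits, a mean of 19.33 ± 3.06 (SD, n = 3). Of the 21, 11 were left when a summit was required in both replicates other than replicate 2. The gene has 3 promoters, and a promoter is here a group of transcript start sites less than 500 bp apart, with a summit within 500 bp counted as at that promoter. Promoter 1, of transcript RA, had 1 summit of signal 305 at 413 bp downstream of its start. The next promoter, of RD and RE, had none in the optimal list, although replicate 3 had a peak there at rank 2940. In replicates 1 and 2 the best peaks there ranked 17499 and 26950. The most 3′ promoter, of RB, RC and RG, had 1 of signal 285.1 at 183 bp upstream.

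The other 19 EcR summits were intronic, 17 of them in intron 3 of the longest transcript. The densest cluster was a single interval of 1131 bp (2R:6132772-6133902), lying just upstream of the most 3′ promoter. It carried 3 summits at 1228, 1432 and 1654 bp from that start, with signals of 981.1, 974.9 and 567.3 and ranks of 176, 179 and 830 in the optimal list. The summit at 1432 bp was found in all replicates, at ranks 347, 126 and 295. The summit at 1228 bp ranked 224 and 103 in replicates 1 and 2 and had no summit within 100 bp in replicate 3, and that at 1654 bp ranked 612 and 998 in replicates 2 and 3 and had none in replicate 1. Replicates thus placed the top of this interval at differing positions within it.

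Downstream of the most 3′ promoter, intron 3 held a second run of EcR summits. The peak at 2R:6120357-6120648, with its summit 11350 bp downstream of the start, had signal 755.4 and rank 394, and it ranked 561, 543 and 266 in the replicates. The peak at 2R:6118928-6119238, at 12791 bp, had signal 656.3 and rank 576, with replicate ranks of 500, 511 and 881. Upstream of that promoter and 5707 bp downstream of the RD and RE start, the peak at 2R:6151315-6151534 had signal 632.5 and rank 635, with ranks of 868, 1319 and 259. All 3 were found in every replicate. Per length, the 3 stretches that the promoters mark off were alike, with 2.51, 2.78 and 2.5 summits per 10 kb in order from the 5′ end.

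The partner gene usp (FBgn0003964), which encodes the fly relative of the retinoid X receptor, is only 3.514 kb long (X:2038798-2042311, minus strand). It held 2 optimal summits, and 2, 1 and 3 in the replicates, a mean of 2 ± 1 (SD, n = 3). Without replicate 1 or 3, by the same requirement on the others, 1 of the 2 was left. The weaker one, with signal 219.6 and rank 5689, lay 423 bp upstream of the more 3′ of its 2 promoters and 133 bp from the start of the neighbour CG4313. The stronger one, with signal 365.7 and rank 2256, lay beyond the 3′ end of usp and 37 bp from the start of Actn, and it ranked 1933, 3125 and 2197 in the replicates. Both were nearer to the start of a neighbouring gene than to a start of usp.

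Eip75B (FBgn0000568; 3L:17950953-18064696, minus strand) encodes a heme-binding nuclear receptor of the early tier and had the most optimal summits of any protein-coding gene. It held 30, or 2.424 per 10 kb, and the next genes by count were jing with 29, and tara and CG1677 with 25 each. Replicates 1, 2 and 3 gave 29, 35 and 34, a mean of 32.67 ± 3.21 (SD, n = 3). All 30 had a start of Eip75B itself as the nearest start site. Of the 30, 20 were found in all 3 replicates, 5 in 2, 4 in 1 and 1 in none. The strongest, with signal 990.5 and rank 168, lay in intron 5, 2717 bp downstream of the RA start, and ranked 138, 114 and 454 in the replicates.

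The summits of Eip75B lay away from its 5′ end. The gene has 7 promoters spread over 102882 bp, and none of the 4 most 5′ ones, of RF, RE, RB and RG, had an optimal summit. Each of the 3 most 3′ ones had at least 1. Promoter 5, of RC, had 2 summits with signals of 644.8 and 257.9, promoter 6, of RA, had 1 of 501.1 at 14 bp from the start, and promoter 7, of RD, had 1 of 192.9. The RC promoter ranked 955, 569 and 598 in the replicates and the RA promoter 652, 1169 and 762, whereas the best peak at the RD promoter ranked 8877, 8718 and 8980, beyond the strongest 7129 of every replicate. The RD promoter summit is thus in the optimal list, made from the pooled peaks, without being among the strongest 7129 of any replicate.

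Counted by stretch, Eip75B had no summit between promoters 1 and 3, 1 in the 33.6 kb between promoters 3 and 4, and 10 in each of the stretches between promoters 4 and 5 and between 5 and 6. The stretch of 9.62 kb between promoters 6 and 7 was the densest, with 7 summits or 7.27 per 10 kb. Of the other Eip75B peaks among the first 1000, that at 3L:18029599-18029924 was alone in its stretch, 3733 bp upstream of the RG start, with signal 861.1, rank 274 and replicate ranks of 184, 283 and 484. The peak at 3L:17993227-17993657, 6322 bp downstream of the RC start, had signal 794.8, rank 337 and replicate ranks of 240, 289 and 962. That at 3L:17967251-17967626, 3993 bp downstream of the RA start, had signal 777.9, rank 363 and replicate ranks of 383, 380 and 427. A second summit of the strongest interval, 2515 bp from the RA start, had signal 552.2, rank 892 and replicate ranks of 642, 666 and 610. All of these were found in every replicate, as was the stronger RC promoter summit at rank 606.

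Eip74EF (FBgn0000567; 3L:17558672-17619325, minus strand) encodes an ETS-domain transcription factor of the early tier. It held 8 optimal summits, 1.132 per 10 kb, and 7, 7 and 4 in the replicates, a mean of 6 ± 1.73 (SD, n = 3). Only 1 of the 8 was found in all replicates, 5 in 2 and 2 in 1, so that requiring both other replicates left 3, 2 and 3 without replicates 1, 2 and 3. The strongest in the territory, with signal 374.9 and rank 2139, lay beyond the 3′ end and 191 bp from the start of the neighbour CycT. Replicates 2 and 3 placed it at ranks 2998 and 986, and no summit of replicate 1 lay within 100 bp.

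Inside Eip74EF the strongest summit had signal 331.6 and rank 2754 and was the one seen in every replicate, at ranks 2751, 2501 and 3555. It lay in intron 5, 14364 bp upstream of the second promoter. The promoter of RA, RC and RE had no optimal summit. That of RB and RD had 1 of signal 262.8 at 3 bp from the start. Between the promoters, over 42.7 kb, there were 2 summits, and over the 18 kb from the second promoter to the 3′ end there were 4.

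The third early gene, br (FBgn0283451; X:1575132-1664869, plus strand), encodes the Broad zinc-finger proteins that direct the change from larva to pupa. It held 0 optimal summits, and 0 in each replicate, in a territory of 99.738 kb with 6 promoters and 16 transcripts. A long gene without a summit was not unusual. Of the 109 genes with a territory at least as long, 74 held a summit and 35 did not, and of the genes on the X with a territory of 60 kb or more 75.4% did, or 52 of 69.

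In the permissive pooled list of 30000 peaks, which was made as input for the reproducibility threshold and includes background, br held 17. The whole permissive lists of the replicates held 12, 22 and 18. Its best pooled peak (X:1618540-1619059), in intron 1 and 3508 bp upstream of promoter 6, had signal 112.3 and rank 13537. A start of the gene Mur2B was nearer to this peak than any start of br. The best peak of each replicate ranked 13429, 13175 and 14002. All of these ranks lie well below the 7129 peaks of the optimal list. The best peaks of replicates 2 and 3 lay within the same interval as the pooled one, and that of replicate 1 lay elsewhere in intron 1.

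**Figure D3:**
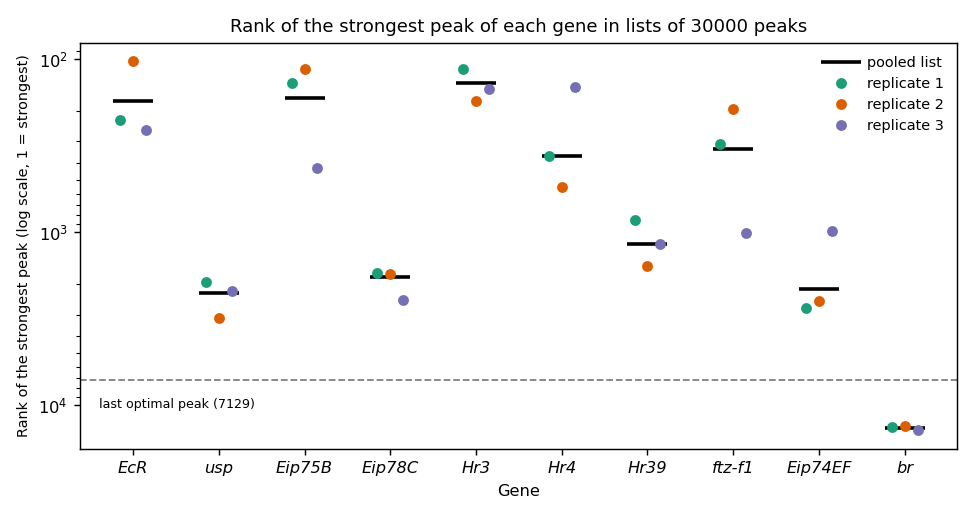
Rank of the strongest peak in the territory of each gene, on a log axis with rank 1 at the top, in the pooled list (bars) and the 3 replicate lists (points), each of 30000 peaks. The dashed line marks rank 7129, the last optimal peak, and br is the only one of the 10 genes below it, at rank 13537 in the pooled list.

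Among the early-late receptors is Eip78C (FBgn0004865; 3L:21226609-21266503, plus strand), a nuclear receptor related to Eip75B. Its density in the optimal list, 0.6013 per 10 kb, was the lowest of the 9 genes with a summit. In replicate 2, however, usp and Eip74EF were lower, and in replicate 3 Eip74EF was. Eip78C held 3 optimal summits, and 4, 5 and 3 in the replicates, a mean of 4 ± 1 (SD, n = 3). Neither of its 2 promoters had a summit in the optimal or the pooled list. All 3 summits were in intron 3, between 16494 and 21509 bp downstream of the RB start, and the start of CG43218 was nearer to each of them. The strongest, with signal 406.3 and rank 1810, ranked 1737, 2088 and 2467 in the replicates. Its 300 bases (3L:21259404-21259703, plus strand of dm6, RefSeq Release 6 assembly) are printed because AGGTCA, the word that nuclear receptors recognise, stands in them in capitals.
Eip78C: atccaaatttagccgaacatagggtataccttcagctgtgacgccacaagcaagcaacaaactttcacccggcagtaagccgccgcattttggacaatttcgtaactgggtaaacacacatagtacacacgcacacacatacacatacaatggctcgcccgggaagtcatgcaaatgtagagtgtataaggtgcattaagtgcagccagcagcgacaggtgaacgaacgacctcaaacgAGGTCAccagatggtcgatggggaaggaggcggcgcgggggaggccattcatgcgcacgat

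Hr4 (FBgn0264562; X:1941940-2007956, plus strand), a nuclear receptor that represses early genes at the start of metamorphosis, held 15 optimal summits, 1.973 per 10 kb. The replicates gave 19, 16 and 18, a mean of 17.67 ± 1.53 (SD, n = 3), all above the optimal count. Requiring a summit in both other replicates left 9 of the 15 without replicate 3. The promoter of its 7 upstream transcripts had no optimal summit. Replicate 3 had a peak there at rank 5223 and replicate 1 at rank 14890, and replicate 2 had none. The promoter of RE and RF, 50360 bp farther downstream, had 1 of signal 239.7 at 249 bp upstream of the start. Between the promoters there were 11 summits on 50.4 kb, the last of them the one just upstream of the RE and RF start, and downstream of the second there were 2 on 15.7 kb.

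The strongest Hr4 peak (X:1947581-1947896), 5812 bp downstream of the first promoter in intron 2, had signal 773.7 and rank 366, with replicate ranks of 364, 979 and 145. The peak at X:1995625-1995896 in intron 7, 3500 bp downstream of the RE and RF start, had signal 610.5 and rank 689, with ranks of 626, 553 and 1213. That at X:1970583-1970812 in intron 4, 21588 bp upstream of the RE and RF start, had signal 546.6 and rank 920, with ranks of 1565, 593 and 1305. All 3 were found in every replicate. A summit of signal 461.4 lay in an untranslated exon near the 3′ end, the only one of the 110 in an exon away from a promoter. The 300 bases at the strongest summit (X:1947603-1947902, plus strand of dm6, RefSeq Release 6 assembly) hold none of the words searched and are shown for contrast, so no letter is in capitals.
Hr4: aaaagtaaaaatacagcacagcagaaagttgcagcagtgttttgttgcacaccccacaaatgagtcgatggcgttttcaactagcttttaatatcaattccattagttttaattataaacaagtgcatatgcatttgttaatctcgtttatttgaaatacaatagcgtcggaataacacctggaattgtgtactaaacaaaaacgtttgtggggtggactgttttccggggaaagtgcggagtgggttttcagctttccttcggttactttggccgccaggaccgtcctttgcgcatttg

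Hr39 (FBgn0261239; 2L:21237250-21259675, plus strand), a nuclear receptor closely related to that of ftz-f1, held 5 optimal summits, 1.542 per 10 kb, and each of the 5 was found in all 3 replicates. The replicates gave 6, 6 and 5, a mean of 5.667 ± 0.577 (SD, n = 3). Its strongest summit lay at its only promoter, 244 bp downstream of the start, with signal 493.3 and rank 1168, and it ranked 854, 1739 and 1167 in the replicates. A second promoter summit, at 463 bp, had signal 329. The other 3 were in intron 2, at 6976, 8163 and 13622 bp, with signals of 472.2, 387.8 and 410.7. The promoter sequence is printed because Hr39 is the one gene of the set whose strongest peak was at its own promoter, as 224 bases that start past exon 1 (2L:21237421-21237644, plus strand of dm6, RefSeq Release 6 assembly), with GAGAG, part of the sites of the GAGA factor, in capitals.
Hr39: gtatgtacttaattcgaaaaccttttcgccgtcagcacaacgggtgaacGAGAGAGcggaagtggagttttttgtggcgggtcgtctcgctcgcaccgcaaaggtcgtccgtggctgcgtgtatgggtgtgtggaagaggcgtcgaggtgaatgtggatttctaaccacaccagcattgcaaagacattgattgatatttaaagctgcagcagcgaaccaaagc

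Hr3 (FBgn0000448; 2R:10203995-10237348, minus strand) encodes the receptor that activates ftz-f1 and is held in check by the Eip75B product. In the optimal list it had the highest density of the 10 genes, 2.999 per 10 kb, and the strongest peak. Its density was 2.54, 3.46 and 2.31 in the replicates and that of Eip75B was 2.34, 2.83 and 2.75, so Eip75B was higher in replicate 3, as it was with summits assigned to the nearest start site (2.42 against 2.08). It held 13 optimal summits, and 11, 15 and 10 in the replicates, a mean of 12 ± 2.65 (SD, n = 3), and requiring both other replicates left 8 of the 13 without replicate 2. The strongest peak (2R:10219785-10220331) lay in intron 1 of the longest transcript, 7900 bp downstream of the RA, RF and RH start, with signal 1065 and rank 137. It ranked 114, 174 and 150 in the replicates, the narrowest spread among the strongest peaks of the 5 genes with a peak in the first 500. Of the 3 promoters, only the most 3′ one, of RA, RF and RH, had an optimal summit, of signal 303.6 and 111 bp upstream, with the start of CG46321 at the same distance.

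The second Hr3 peak among the first 1000 (2R:10238046-10238420) had signal 710.5 and rank 475, with replicate ranks of 512, 342 and 782. It lay 872 bp upstream of the most 5′ start of Hr3, and the start of the neighbour Hdc was nearer, at 232 bp. Of the 13 summits, 10 lay on the 24 kb from the most 3′ promoter to the 3′ end, or 4.17 per 10 kb, the summit at the promoter itself not included. Found in all 3 replicates were 8 of the 13, with 2 in 2 replicates and 3 in 1.

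At the end of the cascade, ftz-f1 (FBgn0001078; 3L:18750607-18801309, minus strand) encodes a nuclear receptor that works with the segmentation protein Ftz in the early embryo and, from another promoter, gives later tissues the competence to respond to ecdysone. It held 13 optimal summits, 2.142 per 10 kb, and 11, 12 and 11 in the replicates, a mean of 11.33 ± 0.577 (SD, n = 3). Requiring both other replicates left 7 and 6 of the 13 without replicates 1 and 2. The most 5′ promoter, of RB, had 1 summit of signal 485.4 at 54 bp from the start. The promoter of RC and RD, 35565 bp farther downstream, had 2 of signals 356.6 and 202.4, and that of RA had none. The best peaks of the RB promoter ranked 1314, 1046 and 1471 in the replicates and those of the RC and RD promoter 1554, 2214 and 6067. Both ftz-f1 promoters were thus within the strongest 7129 peaks of each replicate.

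The strongest ftz-f1 summit lay between its promoters in intron 2, 6113 bp upstream of the RC and RD start (3L:18771369-18772286), with signal 798.9 and rank 332, and ranked 310, 196 and 1017 in the replicates. A second peak among the first 1000 (3L:18759174-18759550) lay in intron 3, 5627 bp downstream of the RA start, with signal 666.2, rank 550 and replicate ranks of 346, 574 and 1070. Both ranked lower in replicate 3 than in the other 2. Both also carried AGGTCA within 100 bp of the summit. The 300 bases at the strongest summit (3L:18771708-18772007, plus strand of dm6, RefSeq Release 6 assembly) are shown with the receptor word, the core of the Knirps site and GAGAG in capitals, on either strand. The Knirps core, which reads TGCTCT here, lies more than 100 bp from this summit and is not counted for it below. The receptor word stands on the minus strand here and so reads TGACCT.
ftz-f1: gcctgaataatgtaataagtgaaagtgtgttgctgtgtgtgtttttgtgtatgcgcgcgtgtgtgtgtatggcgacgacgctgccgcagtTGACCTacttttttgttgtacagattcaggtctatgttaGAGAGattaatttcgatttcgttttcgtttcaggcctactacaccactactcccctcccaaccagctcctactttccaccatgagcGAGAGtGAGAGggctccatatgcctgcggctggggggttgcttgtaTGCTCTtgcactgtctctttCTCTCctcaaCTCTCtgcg

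**Figure D4:**
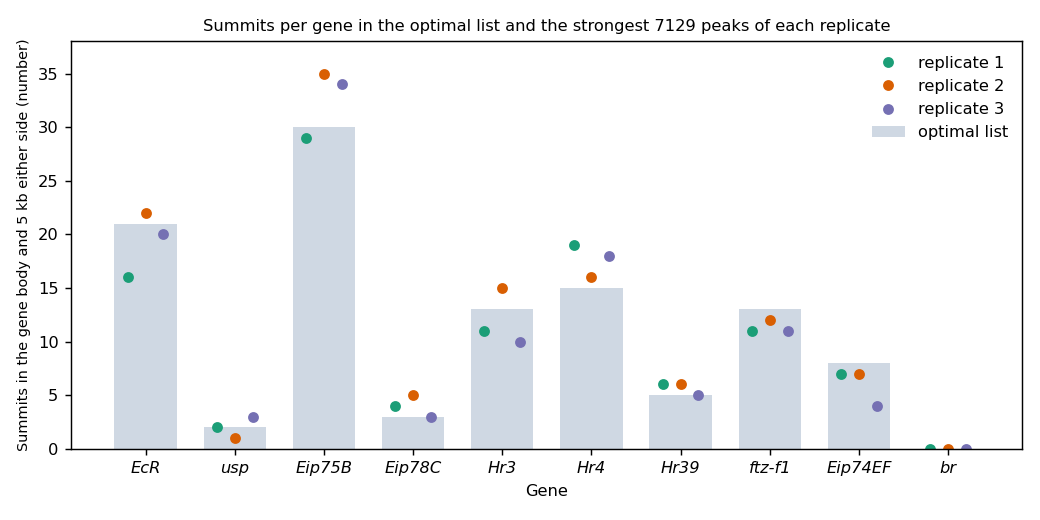
Number of summits in the gene body and 5 kb on either side in the optimal list (bars) and in the strongest 7129 peaks of each of the 3 replicates (points). Eip75B is above the other genes in every replicate, at 29, 35 and 34, and br is at 0 in each.

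Across the 9 genes with a summit, binding lay mostly within introns and away from promoters. Of the 110 summits, 88 were intronic (80.0%, 95% Wilson interval 71.6 to 86.4%) and 15 were at a promoter of their gene (13.6%, 8.44 to 21.3%). The territories are gene bodies with 5 kb on either side. Neither the intronic share of their length nor that of all optimal peaks is set beside these values, so they only describe where the summits lay. The promoter share in the strongest 7129 peaks of the replicates was 11.4%, 12.6% and 15.7%, a mean of 13.3 ± 2.23% (SD, n = 3). None lay in a coding exon outside a promoter, which allows up to 3.37%, 1 was in an untranslated exon, and 2 and 4 were in the upstream and downstream flanks. Within 500 bp of a start site of any gene were 21 of the 110, or 19.1% (12.8 to 27.4%), and over all optimal peaks 2639 of 7129, or 37.0% (35.9 to 38.1%). The 2 intervals did not overlap, but they treat summits as independent, which neighbouring summits of 1 gene are not, and cover counting error only. The 37.0% is over all peaks and not over those in genes of like length.

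The intronic summits were far from the starts of their genes. Their median distance from the nearest start site of the gene was 8163 bp, 64 of 88 were more than 5 kb away, and the farthest, in EcR, was 29124 bp away. Downstream of every promoter of the gene were 36 of the 88. The same distances in other genes of like length are not set beside these. For 90 of the 110 summits the nearest start site belonged to the gene itself, and 20 were nearer to that of another gene, 7 of these within 500 bp of it. Whether such summits act on the ecdysone gene, its neighbour or neither was not tested.

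Alternative promoters of the same gene were occupied unevenly. A summit was at 12 of the 31 promoters (38.7%), beside 16.7% of the promoters of all protein-coding genes. The replicates gave 9, 10 and 12 of the 31, a mean of 10.3 ± 1.53 (SD, n = 3). Replicate 3 included the most 5′ promoter of Hr4 and the EcR promoter of RD and RE, which had no optimal summit. It left out the RD promoter of Eip75B and the RB and RD promoter of Eip74EF, which had an optimal summit. For genes with 2 or more promoters the share was 22.0%, and for the 9 ecdysone genes among them it was 36.7%, or 11 of 30. Of the most 5′ promoters of these 9 genes, 2 had a summit, those of EcR and ftz-f1, and of their 21 other promoters 9 did. The same split over all genes with 2 or more promoters is not set beside these small counts. A preference for either kind of promoter was not tested.

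Recovery in the replicates was close to that of the list as a whole. A summit was called found when 1 lay within 100 bp among the strongest 7129 peaks of a replicate. Of the 110, 62 were found in all 3 replicates (56.4%, 47 to 65.3%), beside 52.1% of all optimal peaks. Found in 2 were 33, in 1 were 13 and in none were 2. Replicates 1, 2 and 3 held 74.5%, 90.0% and 76.4% of the 110, a mean of 80.3 ± 8.45% (SD, n = 3), beside 77.5%, 81.1% and 75.1% of all optimal peaks. Replicate 2 thus stood above the others for these genes by more than it did for the whole list.

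Below the optimal threshold, the pooled list added many weaker peaks at the same genes. The 10 territories held 326 pooled summits, 1.09% of that list, and 33.7% of them were optimal, beside 23.8% of all pooled peaks. The share that was optimal was highest in EcR, 43.8% of 48, and lay at 40.6% of 32 in both Hr3 and ftz-f1. It was 35.3% of 85 in Eip75B, 23.1% of 13 in Eip78C and 0.00% of 17 in br. The permissive list, which includes background, thus held peaks at br, with none of them strong enough for the optimal list. Whether 17 is many for a territory of that length was not tested.

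Sequence features that played no part in the choice of genes were counted in windows of 201 bp, with 100 bp on either side of each summit, as exact words on either strand. The words themselves were chosen with earlier results of these data known. The Knirps core AGAGCA was in 11 of the 110 windows (10%, 95% Wilson interval 5.68 to 17%), beside 14.1% of all 7129 optimal windows. The receptor word AGGTCA was in 12 windows (10.9%, 6.35 to 18.1%), beside 3.86% of all. Its extended form AAGGTCA, which contains it, was in 1.82%, beside 1.23%. TCANTGA, the core of the palindrome bound by the ecdysone receptor dimer, was in 5.45%, beside 4.29%. GAGAG was in 60 windows (54.5%, 45.2 to 63.5%), beside 37.1%, and the Zelda word CAGGTAG was in 0.909%, beside 3.00%. The share of all windows lay outside the interval for AGGTCA and GAGAG and inside it for AGAGCA. With 50 bp on either side, GAGAG was in 27.3% of the windows (19.8 to 36.3%) and the 21.3% of all windows lay inside that interval, whereas AGGTCA was in 5.45% (2.52 to 11.4%), beside 1.88%.

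**Figure D5:**
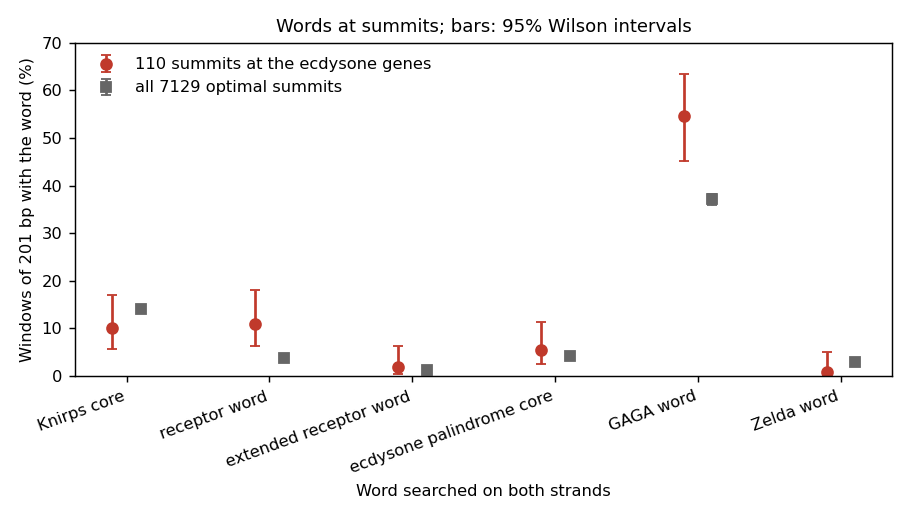
Percentage of windows of 201 bp at summits that hold each word on either strand, for the 110 summits at the ecdysone genes (circles) and all 7129 optimal summits (squares), with 95% Wilson intervals. The receptor word was in 10.9% and 3.86% of windows and the GAGA word in 54.5% and 37.1%, and the intervals overlap for the Knirps core.

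Because the ecdysone windows lay more often away from start sites, the words were also counted in windows by distance. Beyond 500 bp of any start site, AGGTCA was in 12 of 89 ecdysone windows (13.5%, 7.88 to 22.1%) and in 4.34% of 4490 optimal windows, and GAGAG was in 53.9% and 36.5%. All 12 windows with AGGTCA were intronic and none was among the 15 at promoters, where 11 held GAGAG. Within 500 bp of any start site, AGGTCA was in 0 of 21 ecdysone windows (0 to 15.5%). The 3.03% of 2639 optimal windows there lay inside that interval, so these few windows show no lack of the word. GAGAG was in 57.1% of the 21 (36.5 to 75.5%), beside 38.2%, also inside the interval. The median G and C content was 46.8% in the 89 windows and 45.8% in the 4490. By gene, AGGTCA was in 4 windows of ftz-f1, 3 of EcR, 2 of Eip75B and 1 each of Eip78C, Hr4 and Hr39. Windows whose summits are close together overlap and can share a word.

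Receptor words are printed so that the bases around AGGTCA can be compared, each as 30 bases of dm6 from the RefSeq Release 6 assembly read on the strand that carries AGGTCA, with the word in capitals. They come from 9 windows, and those of EcR are not shown. The base before the word was T in 5 of the 9 and in all 4 of ftz-f1, in place of the A that makes the extended form in 1 window each of Eip75B and Hr39. The words lay 7 to 92 bp from their summits, and 6 of the 9 summits were found in all replicates. Showing these 9 was decided after their counts were seen. A match is a description of the letters and not a measured binding site.
Eip75B 3L:18016592-18016621 (+ strand): tttcgaagttcaAGGTCAgtaaacttgcta
Eip75B 3L:17960408-17960437 (+ strand): gcagcgaaatccAGGTCAaacgaaatggaa
Eip78C 3L:21259631-21259660 (+ strand): cgacctcaaacgAGGTCAccagatggtcga
Hr39 2L:21244227-21244256 (- strand): acatttcgggcaAGGTCAtcgcgagataaa
Hr4 X:1995730-1995759 (+ strand): gataatgaaaatAGGTCAaattttaaaaat
ftz-f1 3L:18771786-18771815 (- strand): caacaaaaaagtAGGTCAactgcggcagcg
ftz-f1 3L:18759358-18759387 (+ strand): acagtggaatctAGGTCAtgagcgcaagag
ftz-f1 3L:18757414-18757443 (+ strand): gtcgagtggagtAGGTCAaggacagtgtgt
ftz-f1 3L:18754069-18754098 (+ strand): tgctggctaagtAGGTCAgacgccaaatga

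Other genes of the hormone pathway, were taken from a list of 49 matched genes. Of these, 34 held a summit (69.4%, beside 45.4% of all genes), with a median of 0.789 per 10 kb and a median territory of 13.48 kb. By role, 3 of 9 hormone synthesis genes had a summit, 2 of 2 for hormone uptake and breakdown, 1 of 2 for its release, 6 of 6 coregulators, 6 of 6 later regulators and 16 of 24 effectors. The synthesis genes had a median territory of 12.52 kb, and 39.5% of all genes under 15 kb held a summit, so their 33.3% lay near the background. The effectors had a median territory of 11.36 kb, in the same length class. A summit can count for neighbouring genes, as 1 does for both phm and Cyp18a1 and another, of signal 559, for the effectors Sgs3, Sgs7 and Sgs8. Hr38 and Hr78 are also among the other nuclear receptors below.

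Within these groups the strongest summits were often beside another gene. For synthesis, the summit of signal 717.8 (rank 457) in the territory of shd, which encodes the last hydroxylase of the pathway, was nearest to CG9628, and that of sad, another hydroxylase, of 263.7, to CG6962. Cyp6t3 and dib had none. The hormone importer Oatp74D had a summit of 953.6 (rank 194) at its promoter, 217 bp from the start, with 7, 8 and 6 summits in the replicates. Cyp18a1, which breaks the hormone down, had 1 of 197.4, and its territory held 1, 0 and 0 summits in the replicates. Of the release genes, Ptth, the gland-stimulating hormone, had 1 of 362.1, 31 bp from the start of cold, and tor, its receptor, had none.

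Among coregulators and later regulators every gene listed had a summit in its territory. Their median territories were 17.72 and 28.11 kb, and 60.7% of all genes of 15 to 30 kb held a summit. The strongest summit was nearest to another gene's start for trr (CG14805, 0 bp), rig (Rcd6, 87 bp), Hsc70-4 (tefu, 207 bp) and Eip93F (Idh3b, 58 bp). The strongest coregulator summits were those of Hsp83, a chaperone, at 1209 (rank 87) and of Smr, a corepressor, at 1182 (rank 100). Of the later regulators, Kr-h1, a zinc-finger protein that mediates juvenile hormone action, had 1208 (rank 89) at 3534 bp upstream of its start. Blimp-1, a repressor induced by ecdysone, had 952.3 (rank 196), nearest to lin-28. Of the effectors, the death gene rpr had 881.7 (rank 250) at 4889 bp upstream and ImpL2, an insulin antagonist, 866.9 (rank 263) in an intron, and Cth and Dronc had none. Of the peaks given here with a signal value, only that of Blimp-1 had its nearest start site in another gene.

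The other nuclear receptor genes are the closest relatives by family. Of 13, 12 held a summit (92.3%, beside 45.4% of all genes), with a median of 1 summit and 0.751 per 10 kb on a median territory of 18.06 kb. The 8 nuclear receptors of the ecdysone set, all with a summit, had a median of 13 summits and 2.06 per 10 kb on a median of 55.3 kb. Length differs between these groups, and no test of the difference was made. The strongest peaks among the 13 were at knrl, 1682 (rank 30), and at kni itself, 988.5 (rank 170), and svp had none in the optimal list, with its best pooled peak at rank 7441.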

How the data were processed

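ChIP-seq peak lists of 3 biological replicates in 1 group were used, with replicate numbers from the labels. A permissive list of 30000 peaks per replicate, and 1 on the pooled alignments, came from the authors, per their deposited notes, each called against a shared control alignment. Peaks past a threshold on the irreproducible discovery rate make up the optimal list. Not given in the sources used here are the aligner, the caller, their versions and that threshold. Peak strength is the authors' deposited signal value, whose scale is not stated, and it served only to rank peaks within 1 list. The optimal list is the strongest 7129 of the pooled peaks, and replicate lists were cut to the same number. Read numbers are not in these lists, so the depth is unknown, and intervals (95% Wilson) cover counting error over summits only.

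Coordinates are dm6, 1-based. Genes are those of Ensembl release 115. Each summit position was computed from the peak start and its deposited offset, and placed first at a promoter (500 bp or less from a start site of the gene), then in an exon, an intron or a flank, with introns numbered in the transcript of longest span. No test was run, since there is 1 group, and counts are set beside those of all genes or peaks. The replicate SD is the spread between the 3 samples.

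The genes, gene lists and words were chosen with earlier results of these data known. Named by rule were the strongest optimal summit of each gene, all its summits among the first 1000, the best pooled peak where it had none, and from every other list the 2 genes of highest signal and, alphabetically, up to 2 that had no summit. The genes following Eip75B by count, and those named for a summit shared with or nearest to another gene, were added after values were seen. Of 25 listed effectors 24 matched the annotation, where EcI is Oatp74D and Eip55E is Cth. The code (Python 3.11.15, pandas 2.3.3, numpy 2.4.6, scipy 1.17.1, matplotlib 3.10.9) was tested on simulated data. Alternatives changed the peak list, the flank, the assignment to genes, the promoter distance, the match distance, the word window and the replicates used. Lists on build dm3 were not used. The sequence of 1 summit window is not reported here.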

Additional observations from a re-analysis of the deposited data

How the results depend on the processing

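Of the 10 genes, 9 held a summit under every alternative except assignment to the nearest start site, which left 7, without usp and Eip78C. With the stronger part of the list the 110 summits became 73, at 1.1 per 10 kb, and the promoter share became 11.0%. Keeping only peaks found in both other replicates, leaving out each replicate in turn, gave 68 to 78 summits, 1.03 to 1.18 per 10 kb and a promoter share of 10.3 to 11.5%. The lowest count, 68, came without replicate 2, and this alternative by construction keeps fewer peaks. The density was 1.8 with flanks of 2 kb and 1.5 with 10 kb, and the promoter share was 10% within 250 bp. Counting intervals gave 106 and nearest start sites 90. Of the 49 other ecdysone genes, 34 held a summit, which became 25 with flanks of 2 kb and 40 with 10 kb. It was 24 with the stronger part of the list, and 28, 27 and 29 without replicates 1, 2 and 3. The share of all genes under these settings is not set beside these counts. Counting summits within 300 bp of the next once gave 91, an alternative chosen after seeing the data. In place of 62, 34 summits were found in all replicates within 50 bp, 81 within 200 bp, 88 by any overlap of intervals and 89 in the whole replicate lists.

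With windows of 50 bp either side, the shares were 3.64% for AGAGCA (7.31% of all windows), 5.45% for AGGTCA (1.88%), 1.82% for TCANTGA (2.33%), 27.3% for GAGAG (21.3%) and 0.00% for CAGGTAG (1.49%). With 150 bp they were 17.3% for AGAGCA (19.9%) and 63.6% for GAGAG (48.2%). At 50 bp the GAGAG share of all windows lay inside the interval of the ecdysone windows. Of 80 counts of single genes, 62 stayed within 1.5 times and 18 moved, 17 of them lower. Leaving out 1 replicate moved usp (to 1), EcR (11), Hr3 (8), Hr4 (9), ftz-f1 (6 and 7) and Eip74EF (2 and 3). Eip75B was first under all 8 settings and br was at 0. EcR was second, but level with Hr4 at 11 without replicate 2. No paired analysis was possible because there is 1 group. The unknown depth limits what br and the weaker peaks can show.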
